A study of Homo sapiens with 2 samples.

Results

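The genes that encode the proteins of the cytosolic ribosome were examined in PLC, a human line of liver cancer cells, with and without the secreted protease PRSS35. They were taken by symbol: every gene whose name is RPL or RPS with a number and at most the letter A, X or L after it, together with RPLP0, RPLP1, RPLP2 and RPSA. This gave 81 genes of the 26228 gene names listed in both libraries, and 79 of them had a mean of at least 1 FPKM over the libraries, the level at which 11118 genes were called expressed. The other 2, RPL3L and RPL10L, stayed below that level. Of the 81 genes, 77 encode core ribosomal proteins, 46 of the large and 31 of the small subunit, and 4 (RPL3L, RPL10L, RPL39L and RPS27L) are paralogs of core genes. FAU, which encodes a core protein fused to a ubiquitin-like domain, was not taken by the symbols and is given beside the others.

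Cells of the EV group had been infected with a lentivirus made from the empty pCDH vector and carry the genotype label WT, and cells of the PRSS35 group with pCDH-PRSS35 and carry the label PRSS35 over-expression. Both populations were made stable by puromycin selection, so that the controls had also been through infection and selection. Total RNA of each was sequenced in 1 library per condition, so the differences below were not checked against replicates and carry no p-value. Values are in FPKM, the fragments assigned to a transcript relative to its length and to the mapped fragments, each with the lower and upper bound that Cufflinks gave it. This interval covers error within a library and leaves out variation between cultures.

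PRSS35 itself was at 0.643 FPKM in the EV library and at 1836 in the PRSS35 library, and 1 fragment was worth nearly the same FPKM in both libraries (median EV to PRSS35 ratio 1.00, 621 loci). Of 10 genes typical of hepatocytes and liver cancer, 9 were expressed, led by KRT18 and SERPINA1. FGB, a fibrinogen chain, was below 1 FPKM in both libraries and the albumin transcript ALB was at 4.05 and 5.21 FPKM. None of 4 fibroblast and 3 endothelial markers was expressed, the leukocyte genes PTPRC and CD3E were at 0, and the leukocyte-associated genes LYZ (94.0 and 103.7 FPKM) and CD68 (297.3 and 277.9 FPKM, on a locus joined with another gene) were expressed.

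The ribosome joins amino acids into protein. Its small subunit reads the messenger RNA, its large subunit forms the peptide bond, and nearly every protein of either subunit is present in a single copy, so that cells need these proteins in matched amounts. Ribosomal protein mRNAs are among the most abundant in dividing cells, and most of them belong to the TOP mRNAs, which begin with a cytosine and a run of pyrimidines (5′ terminal oligopyrimidine) through which the mTORC1 kinase and the RNA-binding protein LARP1 set how strongly they are translated. Liver cells add ribosomes when they grow or regenerate.

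The start of the transcript is shown for the genes that the results turn on. RefSeq transcription starts on build GRCh38.p14 were found for 64 of the 81 genes, not including RPL37. Each line gives 10 bases before the annotated start and 20 from the start onward, read 5′ to 3′ on the strand of the gene, and the capitals mark the unbroken run of C and T that begins at the start. RPS19 has 2 listed starts and RPS27A has 3, and the one with the run is shown, while each of the other genes shown has 1. The genes with 2-fold differences come first, then the most abundant transcript RPL35 and the least abundant core transcript RPL22:
RPS19 (chr19:41860245-41860274, plus strand): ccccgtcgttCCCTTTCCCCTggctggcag
RPS3 (chr11:75399508-75399537, plus strand): cgagccacttCCTTTCCTTTCagcggagcg
RPS23 (chr5:82278335-82278364, minus strand): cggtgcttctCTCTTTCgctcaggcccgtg
RPS27A (chr2:55232678-55232707, plus strand): ggcgttcttcCTTTTCgatccgccatctgc
RPL35 (chr9:124861938-124861967, minus strand): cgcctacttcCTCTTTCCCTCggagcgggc
RPL22 (chr1:6199576-6199605, minus strand): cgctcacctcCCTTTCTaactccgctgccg

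RPS19 and RPS3, which were lower with PRSS35, both have a listed start with a run of 11 pyrimidines, and RPS23 and RPS27A, which were higher, with runs of 7 and 6. These genes were picked by their difference, and whether run length goes with the difference across genes was not tested. RPL35 and RPL22, at opposite ends of the abundance range, have runs of 11 and 7.

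The stalk proteins of the large subunit, RPLP0, RPLP1, RPLP2 and RPL12, are shown because they act as one unit, RPL39 for the longest run, and RPS27 with its paralog RPS27L because they differ in the start:
RPLP0 (chr12:120201092-120201121, minus strand): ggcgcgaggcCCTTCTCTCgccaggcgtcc
RPLP1 (chr15:69452808-69452837, plus strand): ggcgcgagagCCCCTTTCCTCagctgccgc
RPLP2 (chr11:809957-809986, plus strand): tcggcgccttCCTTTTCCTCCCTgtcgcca
RPL12 (chr9:127451387-127451416, minus strand): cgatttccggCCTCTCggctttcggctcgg
RPL39 (chrX:119791611-119791640, minus strand): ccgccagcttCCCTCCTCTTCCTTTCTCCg
RPS27 (chr1:153990752-153990781, plus strand): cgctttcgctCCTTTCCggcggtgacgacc
RPS27L (chr15:63157458-63157487, minus strand): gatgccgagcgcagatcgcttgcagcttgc

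The 4 stalk genes have runs of 9, 11, 13 and 6 bases. RPS27 begins with a run of 7 bases, whereas RPS27L has none.

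A start of this kind, scored as a C at the annotated start followed by at least 4 bases that are each C or T, was listed for 46 of the 64 ribosomal protein genes (71.9%), counting a gene if any of its listed starts met the rule. The share was 5.14% of 27305 genes of all kinds and 7.48% of 8179 expressed genes. Runs were 5 to 19 bases long with a median of 8. On the opposite strand at the start the rule was met by 2 of the 64 genes (3.12%, against 5.12% of all genes). Among other mRNAs known to carry a TOP, 10 of 11 with a listed start met the rule, compared with 6 of 68 mitochondrial ribosomal protein genes (8.82%) and 6 of 45 ribosome biogenesis genes (13.3%). The run was thus frequent among cytosolic ribosomal protein genes in the annotation, and much less frequent in genes that build the ribosome or serve the mitochondrial one. The other TOP mRNAs were listed because they are known to carry such a start, so their share follows from that choice.

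In the window from 250 bases before to 50 bases after the start, the letters CGGAAG, which ETS factors can bind, occurred on either strand in 41 of the 64 genes (64.1%), in 22.6% of all genes and in 38.9% of expressed genes. The letters TATAAA, found in TATA boxes, occurred in 6 of the 64 genes (9.38%), in 14.0% of all genes and in 7.6% of expressed genes. These are matches of letters and not measured sites.

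Genes with and without a listed TOP start were also compared by level and difference. The 46 genes with the start had a median of 2200.3 FPKM in EV and 2213 FPKM in PRSS35, and the 17 expressed genes without it 1217 and 1190 FPKM. The median log2 change, here and below log2 of (PRSS35 FPKM + 1) over (EV FPKM + 1), was -0.05 with the start and 0.01 without it. Of the 5 genes past 2-fold described below, 4 had a TOP start among their listed starts, 0 had only listed starts of another kind and RPL37 had no listed start. RPS19 and RPS27A also have listed starts without the run.

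Together the ribosomal protein transcripts held a large share of the signal in both libraries. Their summed FPKM was 243726 in EV and 222238 in PRSS35, which is 28.4% and 26.7% of the FPKM of all loci with a gene name. Over all loci, unnamed ones included, the share was 9.87% in EV and 14.7% in PRSS35, so the order of the libraries turned with the denominator. The large subunit genes summed to 127945 FPKM in EV and 121340 in PRSS35, and the small subunit genes to 115780 and 100899. The ratio of large to small was 1.11 in EV and 1.20 in PRSS35, and without RPS19 and RPS3, described below, it was 1.29 in both. These small subunit genes were left out because they were lower in PRSS35 in these data, so the closer ratios follow in part from that choice. In a bulk library, fewer cells with a transcript and less of it per cell cannot be told apart.

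Of the 81 transcripts, 53 reached 1000 FPKM in EV and 55 in PRSS35. They filled 28 of the 50 highest ranks among the gene names listed in both libraries in EV and 29 in PRSS35. In these ranks each name on a joined locus was counted. The median of the 79 expressed genes was 1659 FPKM in EV and 1611 FPKM in PRSS35. None of the 81 genes was listed at 0 in either library.

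Although the proteins are needed in matched amounts, the transcripts of the core genes spread widely. The middle 50% of core genes, between the lower and upper quartile, lay from 894.5 to 4717 FPKM in EV and from 899.0 to 3598 FPKM in PRSS35. The highest, RPL35, a large subunit protein near the exit of the peptide tunnel, was at 15735.5 FPKM (interval 15078 to 16393) in EV and 14160 FPKM (interval 13567 to 14752) in PRSS35, rank 1 in both libraries. The lowest core gene, RPL22, was at 61.9 FPKM (interval 58.6 to 65.3) and 60.6 FPKM (interval 57.4 to 63.9). The order of genes was nearly the same in both libraries. Across the 79 expressed genes, which share the 2 libraries and are not independent replicates, the levels had a Spearman rho of 0.975 between them.

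The 5 highest means also included RPS2 (11031 FPKM in EV and 10769 in PRSS35), RPS15 (10221 and 9150 FPKM) and RPS16 (8847 and 9233 FPKM), all of the small subunit. At the low end, RPS27L was at 26.1 and 24.7 FPKM, RPL39L at 61.7 and 78.5 FPKM, RPL34 at 181.4 and 152.0 FPKM, and RPL36A, on a locus joined with HNRNPH2, at 256.1 and 225.5 FPKM. Thus 2 of the 5 lowest transcripts were paralogs, and the other 3 encode core proteins of the large subunit. In the order of the 79 expressed genes by level, 58 of the 78 neighbouring pairs in EV and 55 in PRSS35 had overlapping intervals, so that the order within those pairs is not resolved.

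**Figure D1:**
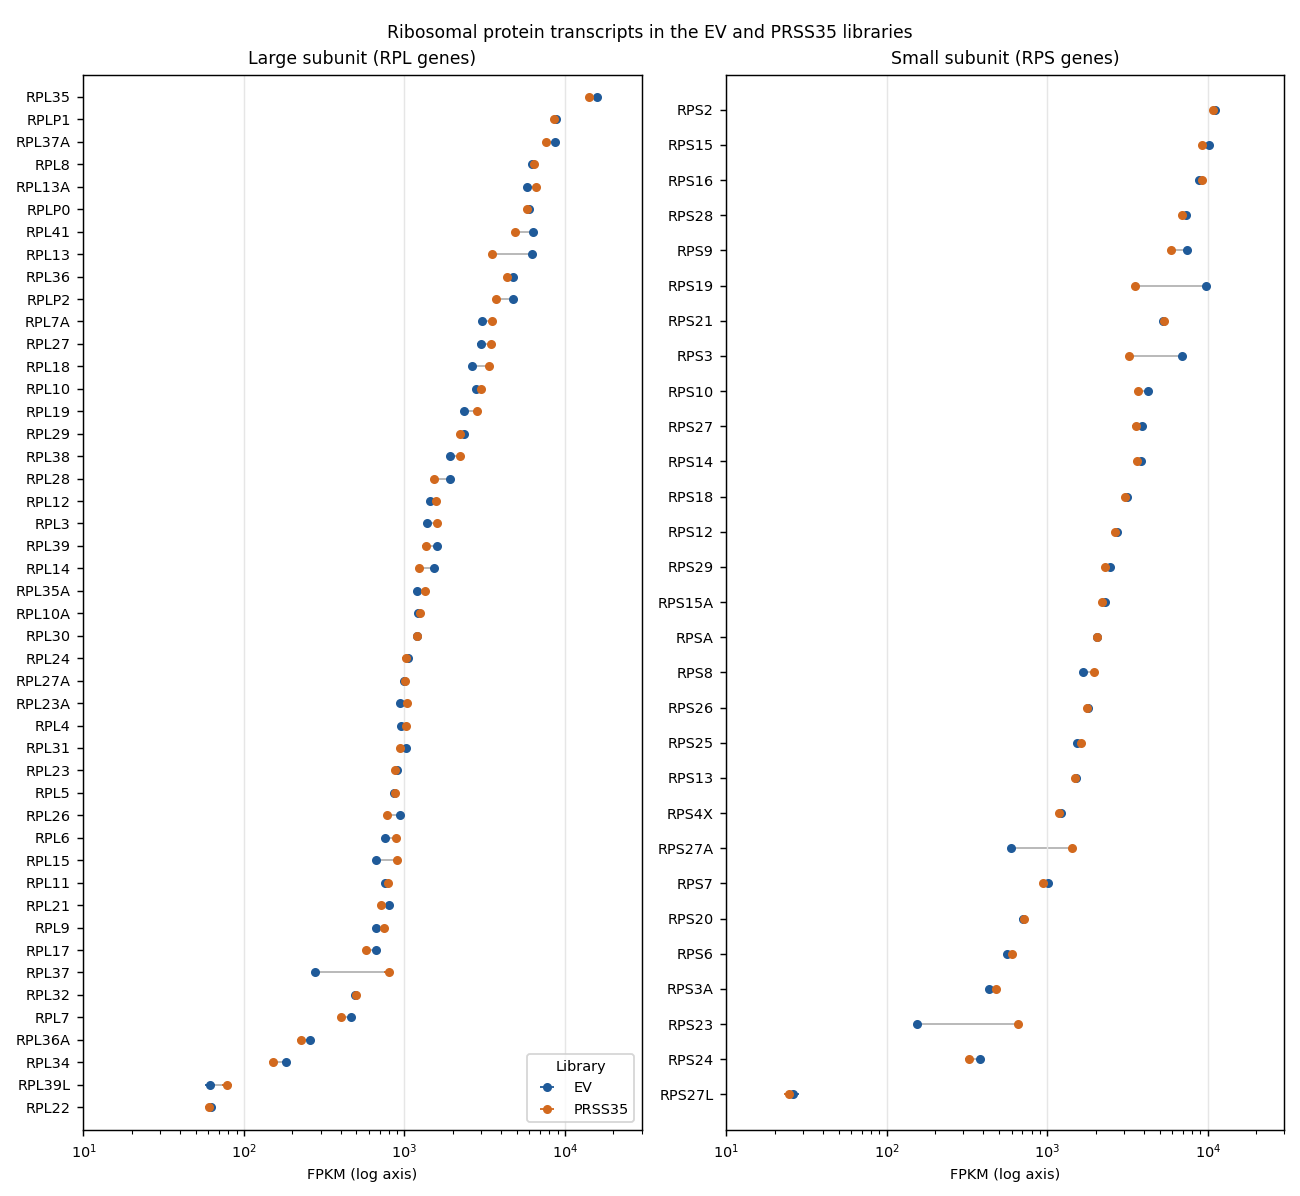
FPKM on a log axis (horizontal) of the expressed ribosomal protein genes apart from 4 that are not shown (vertical, ordered by mean), large subunit left and small subunit right, with EV in blue, PRSS35 in orange and bars for the Cufflinks interval. Most pairs of points lie close together, and RPS19, RPS3, RPL13, RPS23, RPL37 and RPS27A stand apart.

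Abundance went with base composition. Across the 79 genes, the Spearman rho between FPKM and the GC content of the coding sequence was 0.80 in EV and 0.80 in PRSS35, compared with 0.33 and 0.34 over 9568 expressed genes that had a coding sequence in the annotation. Coding length had a rho of 0.01 in EV and -0.00 in PRSS35 with FPKM. The 20 genes of lowest GC content, from 42.1% to 46.7%, had a median of 660.4 FPKM in EV and 711.3 FPKM in PRSS35, whereas the 20 of highest GC content, from 54.9% to 63.0%, had 6241 and 5150 FPKM. These are correlations across genes within the same libraries, described without a test.

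Chromosome 19 holds 12 of the expressed genes, more than any other chromosome, followed by chromosome 3 with 8. These 12 genes ran from 1921 to 11304 FPKM in EV, with a median of 6733, and from 1528 to 9684 FPKM in PRSS35, with a median of 5150. The other 67 had medians of 1386 and 1357 FPKM. The chromosome 19 genes were also rich in GC, with a median of 59.6% against 49.8% in the others. Their median log2 change was -0.14, with 9 of 12 lower in PRSS35, and that of the other 67 was -0.02. Of the 1557 expressed genes with a mean of at least 100 FPKM, 858 were lower. Within the 79 genes the log2 change had a rho of -0.18 with GC content, and over all expressed genes with a coding sequence -0.09.

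For most ribosomal protein transcripts the libraries were close. Over the 79 genes the median log2 change was -0.03, compared with 0.06 over all expressed genes and -0.04 over the 1557 genes with a mean of at least 100 FPKM. The middle 50% of the 79 genes lay between -0.16 and 0.09. In PRSS35, 33 genes had a higher and 46 a lower value than in EV. Over all expressed genes 6688 were higher and 4429 lower, and among those with a mean of at least 100 FPKM 699 and 858.

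Past 2-fold were 5 of the 79 genes, where 5.21% of all expressed genes and 5.39% of those with at least 100 FPKM were. RPS23, RPL37 and RPS27A were higher in PRSS35 (background 2.73%), and RPS19 and RPS3 were lower (background 2.48%). At 1.5-fold there were 3 higher and 3 lower, with RPL13 added to the lower, and the background was 5.23% and 4.27% (9.5% in either direction). The number past 2-fold was thus near that of all genes. When each library was scaled to the FPKM total of every locus, unnamed ones included, the median over expressed genes went from 0.06 to 0.68, RPS19 and RPS3 were no longer past 2-fold and 76 of the 79 genes were higher.

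The Cufflinks intervals of the libraries did not overlap for 20 genes with the higher value in PRSS35 and 24 with the higher value in EV, 55.7% of the 79. Over all expressed genes the share was 40.6% (25.1% higher and 15.5% lower). Among the 1557 with a mean of at least 100 FPKM it was 61.3%, with 405 higher and 549 lower. In the other 35 genes the intervals overlapped. The large subunit held 15 of the 20 higher and 16 of the 24 lower genes, and the small subunit 5 and 8.

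By subunit, 1 of 47 large subunit genes (RPL37) and 4 of 32 small subunit genes were past 2-fold, where 5.21% of all expressed genes were. The median log2 change was -0.00 for the large subunit, with 23 genes higher and 24 lower, and -0.05 for the small subunit, with 10 higher and 22 lower. No test of this difference was made.

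**Figure D2:**
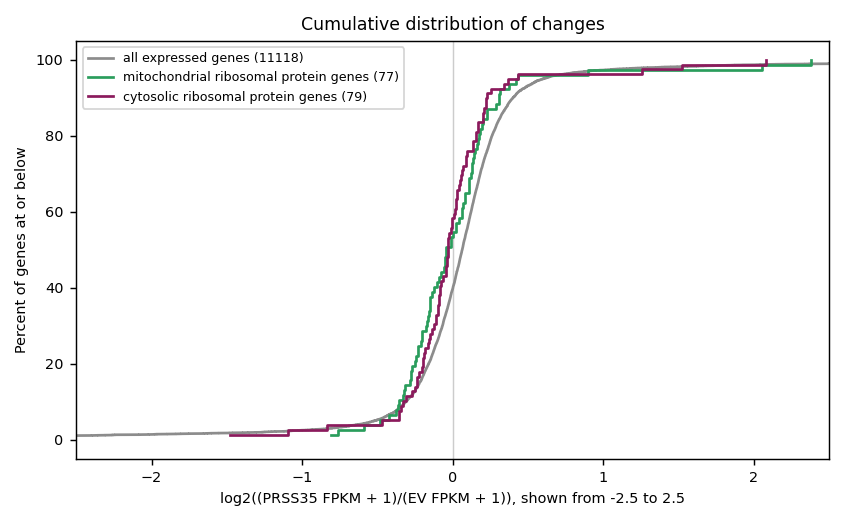
Percent of genes (vertical axis) at or below each log2 change from EV to PRSS35 (horizontal axis) for 79 cytosolic ribosomal protein genes, 77 mitochondrial ribosomal protein genes and 11118 expressed genes. Both ribosomal protein curves are steep around 0, with medians of -0.03 and -0.04, left of the median of 0.06 of all genes.

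RPS19, a small subunit protein needed to mature the 18S ribosomal RNA and the gene most often mutated in Diamond-Blackfan anaemia, was at 9797 FPKM (interval 9464 to 10131) in EV and 3506 FPKM (interval 3359 to 3653) in PRSS35. Its log2 change was -1.48 and its rank among gene names went from 6 to 38. Its locus lies on chromosome 19 of hg19 from 42363988 to 42375484 on the plus strand, and the annotated transcript has 6 exons. Inside it, the EV library had an unnamed assembled locus of 195 bases, from 42364360 to 42364554, with 2140.1 FPKM, and the PRSS35 library had none. The value of that locus is not part of the value of RPS19, and its part in the difference was not tested. In FPKM this was the largest difference among the 81 genes.

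RPS3, which sits at the entry of the messenger RNA channel and also acts in DNA repair, was at 6857 FPKM (interval 6572 to 7143) in EV and 3215 FPKM (interval 3095 to 3335) in PRSS35, a log2 change of -1.09. Its locus on chromosome 11, from 75110535 to 75133345 on the plus strand, has 7 exons and the rank went from 15 to 41. Both RPS3 and RPS19 stayed among the 50 highest gene names in PRSS35. Together they had 16655 FPKM in EV and 6721 in PRSS35. Their difference of -9934 FPKM stood beside one of -21487 FPKM for all 81 genes.

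RPL13, a large subunit protein, was at 6262 FPKM (interval 6005 to 6519) in EV and 3513 FPKM (interval 3405 to 3622) in PRSS35, a log2 change of -0.83. In EV its locus was joined with SNORD68, a small nucleolar RNA encoded in an intron, and began on chromosome 16 at 89627065, while in PRSS35 it stood alone and began at 89626642. The locus therefore differed in extent between the libraries.

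RPS23, a decoding-site protein of the small subunit, was at 154.9 FPKM (interval 148.0 to 161.8) in EV and 658.8 FPKM (interval 630.5 to 687.1) in PRSS35. This log2 change of 2.08, a ratio of 4.25, was the largest of the 79 expressed genes, and the rank went from 1104 to 255. The locus on chromosome 5, on the minus strand with 4 exons, started at 81569139 in both libraries and ended at 81574235 in EV and 81574430 in PRSS35. In EV RPS23 was among the least abundant ribosomal protein transcripts, and in PRSS35 it was closer to the lower quartile of the core genes.

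RPL37, a zinc-binding large subunit protein, was at 276.7 FPKM (interval 264.1 to 289.3) in EV and 797.4 FPKM (interval 750.0 to 844.8) in PRSS35, a log2 change of 1.52. In EV the value belongs to a locus joined with LOC100506548, from 40825365 to 40835387 on chromosome 5, while the PRSS35 locus ran from 40831430 to the same end. FPKM is scaled by transcript length, and the part of the differing locus in this change was not tested.

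RPS27A, made as a fusion of ubiquitin and a small subunit protein, was at 596.1 FPKM (interval 575.6 to 616.6) in EV and 1424 FPKM (interval 1369 to 1479) in PRSS35, a log2 change of 1.25. The locus on chromosome 2, from 55459039 to 55462989 on the plus strand, was joined with the microRNA gene MIR4426 in both libraries. All 3 of the higher genes had been below the lower quartile of the core genes in EV, and RPS27A was above it in PRSS35.

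The 5 genes past 2-fold summed to 17682 FPKM in EV and 9601 FPKM in PRSS35. The other 76 summed to 226043 and 212637 FPKM, a log2 ratio of -0.09. All 5 were loci that Cufflinks had assembled from the reads in both libraries, as were 62 of the 79 genes. Of the 17 genes that kept the annotated locus in at least 1 library, 0 were past 2-fold, where 5.21% of all expressed genes were. These were 6 assembled in EV only, 7 assembled in PRSS35 only and 4 assembled in neither (RPL6, RPL7, RPS6 and RPS27L), with log2 changes from -0.25 to 0.34. Whether assembly plays a part in the 5 differences was not tested.

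**Figure D3:**
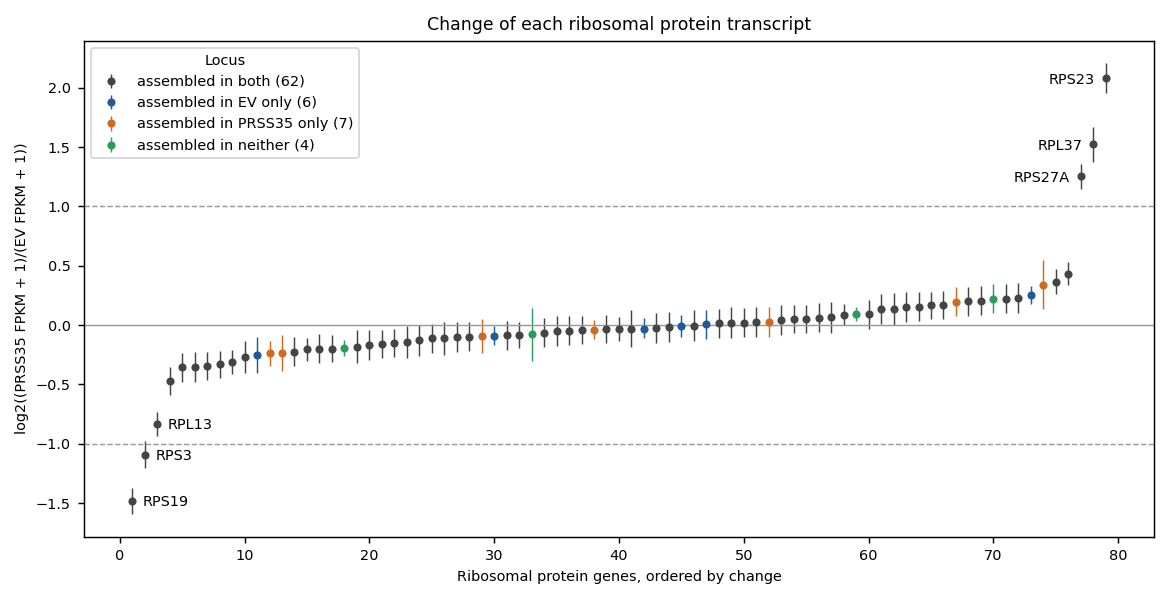
Log2 change from EV to PRSS35 (vertical axis) of the 79 genes in order of change (horizontal axis), coloured by whether the locus was assembled from reads in both, 1 or neither library, with bars from the lower bound of PRSS35 over the upper bound of EV to the reverse and dashed lines at 2-fold. Apart from RPS19, RPS3, RPL13, RPS23, RPL37 and RPS27A, the genes lie within 1.5-fold of no change.

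The other differences were below 1.5-fold. RPL41, the shortest ribosomal protein, was at 6290.3 FPKM (interval 6023 to 6558) in EV and 4912 FPKM (interval 4701 to 5123) in PRSS35, a log2 change of -0.36. In the other direction RPL15 was at 666.1 FPKM (interval 642.7 to 689.4) in EV and 899.0 FPKM (interval 870.9 to 927.1) in PRSS35, a change of 0.43, and RPL18 at 2618 and 3371 FPKM, a change of 0.36. For these 3 genes the intervals did not overlap.

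Genes of known role were read as groups. RPL5 and RPL11, which with the 5S ribosomal RNA bind MDM2 and stabilise p53 when ribosome assembly fails, were at 857.8 and 759.4 FPKM in EV and 875.3 and 785.2 FPKM in PRSS35. Their log2 changes were 0.03 and 0.05, with overlapping intervals.

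The stalk recruits the translation factors that hydrolyse GTP. RPLP0 was at 5967 FPKM in EV and 5839 FPKM in PRSS35, and RPLP1 at 8824 and 8539 FPKM, with overlapping intervals for both. RPLP2 was lower, at 4750.5 FPKM (interval 4547 to 4953) in EV and 3715 FPKM (interval 3554 to 3875) in PRSS35, a log2 change of -0.35. RPL12, which anchors the base of the stalk, was slightly higher, at 1443 FPKM (interval 1379 to 1506) in EV, on a locus joined with SNORA65, and 1581 FPKM (interval 1512 to 1651) in PRSS35. The 4 stalk genes, whose starts carry the same kind of run, thus included 1 lower, 1 higher and 2 with overlapping intervals.

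Around the peptidyl transferase centre and the exit tunnel, RPL3 was at 1386 and 1592 FPKM (log2 change 0.20), RPL4 at 955.6 and 1018 FPKM (0.09), on a joined locus in PRSS35 only, and RPL10 at 2807 and 2983 FPKM (0.09). RPL39 was at 1601 FPKM in EV and 1357 FPKM in PRSS35, a change of -0.24. The intervals of RPL3 and RPL39 did not overlap, and those of RPL4 and RPL10 did.

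Ubiquitin fusion genes such as RPS27A supply ubiquitin as well as ribosomal protein. RPS27A, described above, was higher in PRSS35. FAU, which carries a ubiquitin-like domain in front of a small subunit protein, was lower, at 4035 FPKM (interval 3864 to 4207) and 3566 FPKM (interval 3414 to 3718), a change of -0.18.

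Of the 10 genes listed for Diamond-Blackfan anaemia, a failure of red cell production caused by loss of 1 copy of a ribosomal protein gene, RPS19 was the only one past 2-fold. Of all expressed genes, 5.21% were past 2-fold. Their median log2 change was -0.11, with 3 higher and 7 lower. RPS26 was at 1792 FPKM in EV and 1773 FPKM in PRSS35, RPS7 at 1004 and 936.2 FPKM, and RPS24 at 382.0 and 323.9 FPKM, a log2 change of -0.24. RPS10, joined with NUDT3 in both libraries, was at 4230.3 and 3686 FPKM (-0.20), RPL26 at 939.3 and 779.9 FPKM (-0.27) and RPL35A at 1203 and 1340.1 FPKM (0.16). The intervals of RPS24, RPS10, RPL26 and RPL35A did not overlap.

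RPS6, the small subunit protein that S6 kinase phosphorylates downstream of mTORC1, was at 564.3 FPKM (interval 552.7 to 575.9) in EV and 600.8 FPKM (interval 588.8 to 612.8) in PRSS35, a log2 change of 0.09, and kept its annotated locus in both. RPSA, also known as the laminin receptor, was at 2042 FPKM, joined with SNORA6, in EV and 2054 FPKM in PRSS35. The starts of RPS6 and RPSA are shown as examples of a TOP start in genes with small differences:
RPS6 (chr9:19380217-19380246, minus strand): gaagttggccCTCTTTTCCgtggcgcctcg
RPSA (chr3:39406710-39406739, plus strand): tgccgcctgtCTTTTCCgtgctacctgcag

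Runs of 9 and 7 pyrimidines begin at these starts, and both genes were within 0.10 of no change on the log2 scale.

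Several ribosomal proteins have a second gene that is used in few tissues or under stress. RPL3L, known from heart and skeletal muscle, was at 0.0761 FPKM in EV and 0.765 FPKM in PRSS35, and RPL10L, known from testis, at 0.239 and 0.479 FPKM. RPL39L was higher in PRSS35, at 61.7 FPKM (interval 57.4 to 66.1) in EV and 78.5 FPKM (interval 72.6 to 84.4), on a locus assembled in PRSS35 only, while its parent RPL39 was lower. RPS27L, a p53 target, was at 26.1 FPKM (interval 24.1 to 28.2) and 24.7 FPKM (interval 22.7 to 26.7). These 4 paralogs thus stayed well below their parents, and RPL39L and RPL39 differed in opposite directions.

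Paralogs with a name outside the symbols were read beside them. RPL22L1, the paralog that RPL22 is known to repress, was at 150.9 FPKM (interval 129.1 to 172.8) in EV and 13.2 FPKM (interval 11.9 to 14.4) in PRSS35, a log2 change of -3.42, with RPL22 itself nearly equal in the libraries. It was thus above RPL22 in EV and below it in PRSS35. RPL7L1 was at 18.9 and 20.3 FPKM, RPL26L1 at 73.0 and 62.3 FPKM (-0.23) and RPL36AL at 98.5 and 119.3 FPKM (0.27). RPL22L1 was the only one of these past 2-fold, where 5.21% of all expressed genes were. Its locus was assembled in both libraries, and whether assembly plays a part in the difference was not tested.

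Other genes of the same programme were read as lists. Among 18 expressed TOP mRNAs outside the ribosomal proteins by symbol, which include FAU and the elongation factors, 0 were past 2-fold, where 5.21% of all expressed genes were. The median log2 change was 0.00, with 9 higher and 9 lower. TPT1, a growth-associated TOP transcript, was at 111.9 FPKM in EV and 79.3 FPKM in PRSS35 (-0.49), on a joined locus in both libraries. EEF1D, an elongation factor subunit, was at 393.3 and 539.7 FPKM (0.46), on a joined locus in EV only. EIF3E, an initiation factor subunit, was at 65.2 and 49.0 FPKM (-0.40).

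For the lists that follow, the share of all expressed genes past 2-fold was 5.21%. Of 51 expressed ribosome biogenesis genes, 0 were past 2-fold. Their median log2 change was -0.04, with 19 higher and 32 lower, and intervals did not overlap for 3 higher and 9 lower genes, 23.5% of the list where all expressed genes had 40.6%. Among 13 genes of the mTORC1 pathway 0 were past 2-fold and the median was -0.01. DDIT4, which inhibits mTORC1 under stress, was at 126.9 FPKM in EV and 241.0 FPKM in PRSS35, a log2 change of 0.92, and AKT1S1, a subunit that restrains the kinase, at 217.9 and 162.3 FPKM (-0.42). The 77 mitochondrial ribosomal protein genes had a median FPKM of 66.5 in EV and 77.8 in PRSS35 and a median log2 change of -0.04, with 2 past 2-fold, MRPS25 (10.9 and 60.8 FPKM, on a locus assembled in PRSS35 only) and MRPL52 (148.9 and 621.0 FPKM). These lists, like the cytosolic ribosomal protein genes, were centred close to 0.

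Many ribosomal protein genes carry small nucleolar RNAs in their introns. In each library 27 of the 81 genes contained 55 small nucleolar RNA loci. Of these, 12 in EV and 8 in PRSS35 were joined into the row of the host gene, and the other 43 and 47 were all listed at 0. The 27 hosts had a median log2 change of 0.01, with 15 higher and 12 lower, and the other 52 expressed genes one of -0.06, with 18 higher and 34 lower.

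Fragments of ribosomal protein mRNAs can also match processed pseudogenes. The tables name 31 such pseudogenes, of which 2 were joined with the parent gene. The other 29 summed to 92.2 FPKM in EV and 97.6 FPKM in PRSS35, beside 243726 and 222238 FPKM for the genes, and 13 of the pseudogenes were at 0 in both libraries. Only pseudogenes named after a parent gene were counted, and unnamed loci were left out. The sum therefore sets no upper limit on the fragments that matched pseudogenes.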

How the data were processed

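For PLC cells carrying the empty vector (EV) or PRSS35, 1 RNA library each was sequenced on a HiSeq2500. The authors aligned reads to hg19 with TopHat2 2.1.0 and assembled and quantified transcripts with Cufflinks (the submitters' processing notes name Cuffdiff 2.2.1), and the deposited FPKM and bounds were used as they stand. Annotation release and options are not given in the sources used here.

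Gene names were matched between libraries. Names on a joined locus each received its FPKM, rows of 1 name were summed, and haplotype and unplaced contigs were left out. Expressed means a mean of at least 1 FPKM, changes use a pseudocount of 1 FPKM, which understates changes of low genes, and calls a 2-fold threshold. The genes and lists were chosen with earlier results of these data known. Named are the highest, lowest and most changed genes, those joined in 1 library and those of listed roles, except some not reported here. Starts came from RefSeq (GRCh38.p14), and coding sequences and exons from GENCODE release 44 lifted to GRCh37, the hg19 assembly. Fragments per locus were inferred from the width of the bounds. The scripts were tested on simulated data. Alternatives were other pseudocounts, scalings, filters and row rules. Software was matplotlib 3.10.9 for figures and scipy 1.17.1, pandas 2.3.3 and numpy 2.4.6 on Python 3.11.15 for values.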

Additional observations from a re-analysis of the deposited data

How the results depend on the processing

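The number of ribosomal protein genes past 2-fold, 5 of 79, was 5 or 6 with other pseudocounts, scalings, row rules and filters and at 1.5-fold, except that it was 4 of 60 with joined rows left out, where RPL37 and RPS27A dropped out and 1 other gene entered, 4 of 72 without the genes joined in only 1 library (chosen after seeing the data), and 0 among the 4 genes that kept their annotated locus in both libraries, of which 3 had intervals that did not overlap. Scaling to the FPKM total of every locus gave 6, all higher, with a median log2 change of 0.68 and 76 genes higher, against 0.68 for all expressed genes. RPS19 was then at -0.77 and RPS3 at -0.38. These totals had a ratio of 1.64 between EV and PRSS35. The split of 33 higher and 46 lower genes was 43 and 36 with scaling to the total of named loci, 23 and 56 after centring on all expressed genes and 22 and 57 with upper quartile scaling, with medians of 0.01, -0.09 and -0.10. Of all expressed genes, 579 were past 2-fold, 354 with a pseudocount of 5 FPKM, 1618 with the total of every locus (88.4% of them higher, against 52.3%), 367 with joined rows left out, 371 at a mean of at least 5 FPKM, 1056 at 1.5-fold, and 84 at a mean of at least 100 FPKM, a restriction added after seeing the data. The summed FPKM was 193985 in EV and 184599 in PRSS35 with joined rows left out. No paired analysis was possible because only 1 library was sequenced for EV and 1 for PRSS35. At these levels the intervals were narrow, with a median of 4.25% of the value to either side for assembled loci in EV, and variation between cultures was not measured.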

Other observations

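A few other genes overlap ribosomal protein loci and have values of their own. TBC1D8, which overlaps RPL31, was at 11.6 FPKM in EV and 15.5 FPKM in PRSS35. GLA, the lysosomal alpha-galactosidase gene, was at 42.3 and 48.1 FPKM. It lies within the locus that joined RPL36A with HNRNPH2 and does not overlap the annotated RPL36A gene itself. RPL31 itself was at 1017 and 941.4 FPKM.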
